A study of Mus musculus with 6 samples.

Results

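The replication-dependent histone genes encode the histones that package newly copied DNA. Members were the genes of the deposited transcript tables whose names follow the cluster nomenclature of mouse histones (H1f1 to H1f5 and the H2ac, H2bc, H3c and H4c series), without the testis genes H2ac1, H2bc1 and H2bc27. This gave 63 genes out of 49203 gene names. They comprise 5 genes for the linker histone H1, 17 for H2A, 16 for H2B, 12 for H3 and 13 for H4. Of these, 51 lie on chromosome 13, 10 on chromosome 3, 1 on chromosome 11 (H2ac25) and 1 on chromosome 6 (H4c16).

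Mouse Sertoli cell lines were profiled by total RNA sequencing. They either express the reporter named Y-GFP in the labels (GFP-positive libraries 2, 4 and 7, phenotype green) or do not (GFP-negative libraries 9, 11 and M, phenotype non-green), and whether the GFP-negative lines still hold the reporter is not said. Sertoli cells nurse the developing sperm inside the seminiferous tubules. All libraries were depleted of ribosomal RNA and made strand-specific, so that mRNAs without a poly(A) tail were kept. Strain, age, treatment, the derivation of the lines and the promoter of the reporter were not stated in the sources used here. They do not say whether replicates of a group are different cultures or animals, so a p-value measures only how these samples vary, and that variation may be technical.

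Canonical histone mRNAs accumulate when DNA is replicated and are destroyed when replication ends. They carry no introns and end in a conserved stem-loop instead of a poly(A) tail, and the stem-loop binding protein SLBP takes them through processing, export, translation and decay. Many near-identical gene copies stand in clusters, served by a nuclear body in which the coactivator NPAT and the U7 ribonucleoprotein are concentrated. In the mouse testis, Sertoli cells divide until puberty and then leave the cell cycle.

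The stem-loop is the element that these mRNAs share, so it was read from the annotated transcripts, and examples are shown for the main forms and for each histone type. It was found in single-exon GENCODE transcripts (build GRCm38) of 43 of the 63 genes. In the lines that follow, capitals mark the 2 arms of the stem and the loop of 4 bases between them, and small letters are the flanking bases. The windows lie at chr13:21831793-21831818 on the minus strand (H4c18), chr13:23757361-23757386 on the plus strand (H4c2), chr13:23745042-23745067 on the minus strand (H3c3), chr13:23535884-23535909 on the plus strand (H3c8), chr13:23751567-23751592 on the plus strand (H2ac4), chr3:96220413-96220438 on the minus strand (H2ac20), chr13:23747198-23747223 on the plus strand (H2bc3) and chr13:23739507-23739532 on the plus strand (H1f2).
H4c18: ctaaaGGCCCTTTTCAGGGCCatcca
H4c2: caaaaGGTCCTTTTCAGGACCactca
H3c3: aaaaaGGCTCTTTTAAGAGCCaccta
H3c8: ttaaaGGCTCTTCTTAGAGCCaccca
H2ac4: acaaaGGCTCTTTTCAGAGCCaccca
H2ac20: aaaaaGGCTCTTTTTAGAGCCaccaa
H2bc3: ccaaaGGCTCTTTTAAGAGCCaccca
H1f2: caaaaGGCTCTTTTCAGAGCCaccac

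The form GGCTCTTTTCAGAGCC, shown in H2ac4 and H1f2, was held by 24 genes, none of them an H4 gene. The form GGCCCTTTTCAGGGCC, shown in H4c18, was held by 7 genes, all of them H4 genes. Of the others, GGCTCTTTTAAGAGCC was held by 5 genes, 3 of them H3 genes, and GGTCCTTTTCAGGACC by 2 H4 genes. The search allowed C or T at 2 places of the first arm and A or G at their partners, and it fixed all other bases of the arms. That both arms were complementary along their length in all 43 genes was therefore largely set by the search. H3c8, with a loop of TCTT, and H2ac20, with a loop of TTTT in an arm pair otherwise like that of H2ac4, each held a form found in no other of these genes, as did H4c1.

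The promoters show which letters the types share upstream. RefSeq windows from 250 bases before to 50 bases after the annotated start (GRCm38.p6) matched 55 of the 63 genes and gave 56 windows. On either strand, CCAAT was found in 85.71% of these windows, against 37.41% of all 32851 RefSeq promoter windows. It stood in all 5 H1, 16 H2A, 14 H2B and 10 H3 windows, and in 3 of 11 H4 windows. TATAAA was found in 57.14% of member windows, against 13.62% of all windows, and in 8 of the 11 H4 windows. The octamer ATTTGCAT was found in 19.64%, against 1.74% of all windows: it stood in 5 of 16 H2A and 6 of 14 H2B windows and in none of the other types. AAACACA, known from H1 promoters, was found in 10.71%, against 7.18% of all windows, and stood in 4 of 5 H1 windows. No hit of 1 motif overlapped a hit of another in these windows. Windows of neighbouring H2A and H2B genes read in opposite directions cover some of the same bases, so they are not all separate promoters. A site there can count for both genes, as does the octamer of H2ac12 and H2bc12 and that of H2ac8 and H2bc8. A match describes these letters in this window only.

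Windows of 4 genes are shown because each stands for one of these arrangements and belongs to a gene whose values are given further on: an H1 gene with CCAAT and AAACACA, an H2B gene with the octamer, an H3 gene with CCAAT and TATAAA, and an H4 gene without CCAAT. Capitals mark the motifs on either strand. The windows lie at chr13:23738557-23738856 on the plus strand (H1f2), chr13:23746484-23746783 on the plus strand (H2bc3), chr13:21717378-21717677 on the plus strand (H3c10) and chr13:21750504-21750803 on the minus strand (H4c12).
H1f2: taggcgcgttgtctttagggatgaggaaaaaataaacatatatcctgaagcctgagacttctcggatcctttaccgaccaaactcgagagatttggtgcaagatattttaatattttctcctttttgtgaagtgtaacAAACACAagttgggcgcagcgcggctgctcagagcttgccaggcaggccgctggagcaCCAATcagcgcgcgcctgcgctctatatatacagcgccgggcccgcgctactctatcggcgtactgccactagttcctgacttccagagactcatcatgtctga
H2bc3: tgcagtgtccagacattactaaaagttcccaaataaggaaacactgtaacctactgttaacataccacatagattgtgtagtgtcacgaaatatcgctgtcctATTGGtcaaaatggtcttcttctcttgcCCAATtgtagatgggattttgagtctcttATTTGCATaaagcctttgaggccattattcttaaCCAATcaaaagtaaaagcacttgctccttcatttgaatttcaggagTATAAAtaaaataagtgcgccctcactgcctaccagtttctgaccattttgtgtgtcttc
H3c10: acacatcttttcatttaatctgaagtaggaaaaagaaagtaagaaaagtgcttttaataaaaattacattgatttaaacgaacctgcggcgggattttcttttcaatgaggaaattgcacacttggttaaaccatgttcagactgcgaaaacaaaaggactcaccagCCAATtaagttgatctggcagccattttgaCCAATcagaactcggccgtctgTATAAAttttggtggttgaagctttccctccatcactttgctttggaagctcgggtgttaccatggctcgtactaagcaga
H4c12: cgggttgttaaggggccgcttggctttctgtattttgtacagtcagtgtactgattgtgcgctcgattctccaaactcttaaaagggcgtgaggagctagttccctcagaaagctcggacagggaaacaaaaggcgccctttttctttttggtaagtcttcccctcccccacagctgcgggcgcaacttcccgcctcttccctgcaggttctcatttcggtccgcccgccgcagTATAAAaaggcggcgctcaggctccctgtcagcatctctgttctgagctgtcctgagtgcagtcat

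The libraries held 11.2, 11.8 and 11.3 Gb of aligned bases in GFP-positive 2, 4 and 7, and 10.02, 9.67 and 8.25 Gb in GFP-negative 9, 11 and M. Levels are FPKM (fragments per length of transcript and per mapped fragments of the library), summed over the transcripts of a gene name and scaled between libraries by the median of ratios. FPKM summed to between 668557 and 747404 per GFP-positive library, and to between 292449 and 470070 per GFP-negative library. Of the Sertoli cell markers, Sox9, Wt1, Clu, Amh, Fshr, Dhh, Cldn11 and Inha were above 0 in all 6 libraries, and Rhox5 was listed at 0 in 2 of them and fell under the filter. Of 11 tested Sertoli markers, 1 was higher (Dmrt1) and 3 were lower (Sox9, Gata4 and Vim) in GFP-positive libraries by limma's test. Over all features 11.9% were higher and 8.55% were lower. With every library given the same FPKM total none of the markers was higher and 4 were lower, where 39.2% of all features were lower. With quantile normalization none was higher and 2 were lower, and none passed without GFP-positive 7 or GFP-negative M. Gata4 and Vim also lost their calls with no filter and without GFP-positive 2 or 4. Over all features, 3862 of 18921 passed limma's test at an adjusted p of 0.05 (20.4%).

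Most replication-dependent histone genes had higher levels in the GFP-positive libraries, in every type and on every chromosome that holds them. The summed level of all members was 12126, 23971 and 21756 scaled FPKM in GFP-positive 2, 4 and 7, against 4279, 4729 and 3902 in GFP-negative 9, 11 and M. The mean was 19280 ± 6297 over the GFP-positive libraries and 4303 ± 414 over the GFP-negative libraries (SD, n = 3 each), a ratio of 4.48. GFP-positive 2 was the lowest of its group and stood well above the highest GFP-negative library. The members took 1.97%, 2.85% and 2.89% of the FPKM of the GFP-positive libraries, against 0.992%, 1.502% and 1.34% of that of the GFP-negative libraries. In bulk RNA, more cells that express these genes and more RNA per cell cannot be told apart.

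Of the 63 members, 62 passed the filter on low values and entered the test, and H2bc23 did not. With limma's test on log2(scaled FPKM + 0.5), adjusted over all 18921 features, 50 of the 62 were higher in GFP-positive libraries, where 11.9% of all features were higher. H2bc24, one of the 50, had a GFP-negative mean under the filter and entered the test through the GFP-positive libraries. H1f4 was lower, where 8.55% of all features were lower, and 11 members did not pass. The median log2 difference of the tested members was 2.20, against 0.01 over all tested features. In 55 of the 62, all 3 GFP-positive libraries lay above all 3 GFP-negative libraries, which held for 22.4% of all features. GFP-positive 2 was the lowest GFP-positive library for 55 of the 62.

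**Figure D1:**
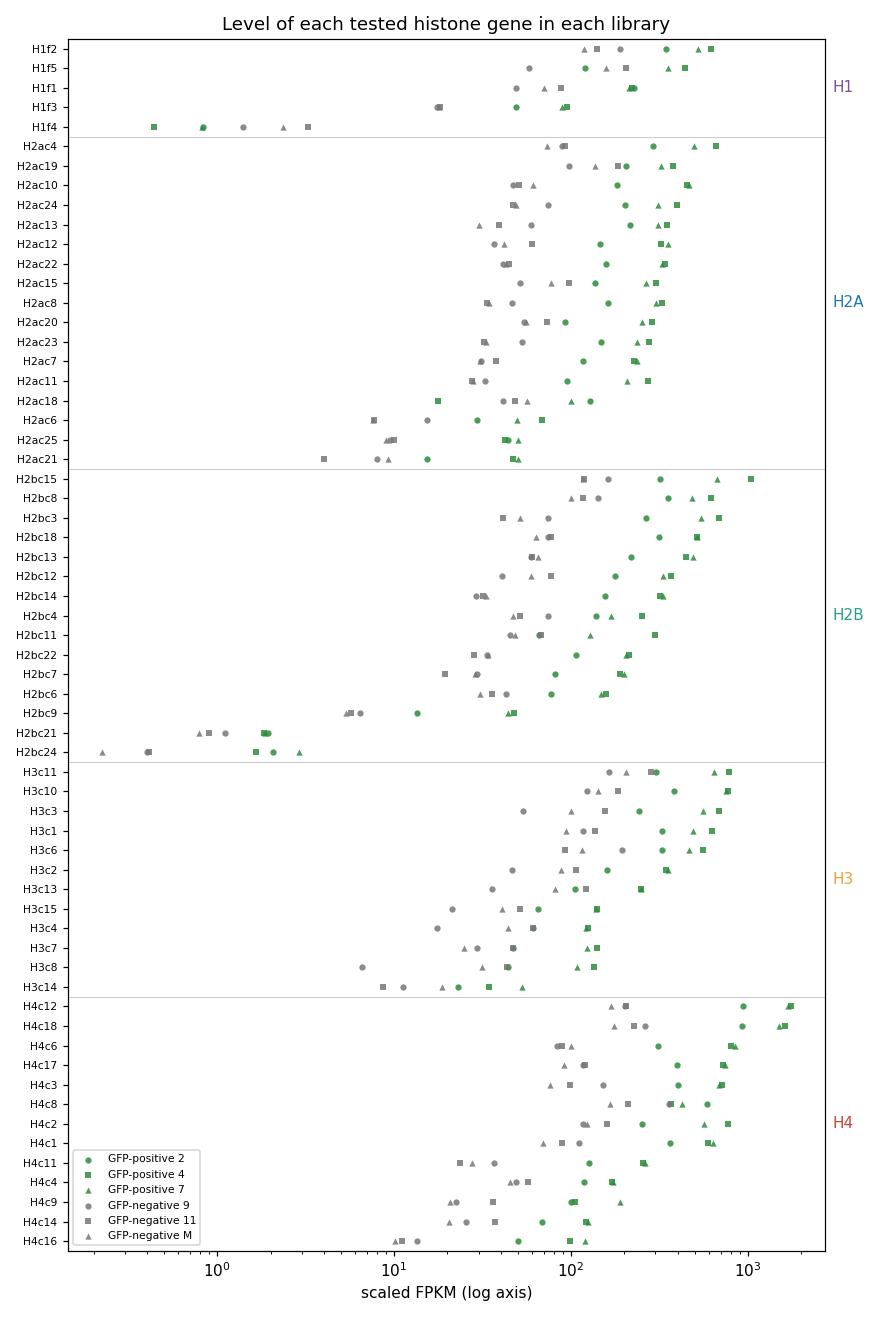
Level of each tested member in each library, in scaled FPKM on a log axis, with 1 row per gene, grouped by histone type and ordered by mean level. Green points are GFP-positive 2, 4 and 7 and grey points GFP-negative 9, 11 and M. In 55 of the 62 rows the green points all lie to the right of the grey ones, and H1f4 shows the opposite order.

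These calls rest on particular libraries. Without GFP-positive 7 no member passed limma's adjusted test, and neither did any without GFP-negative M, where 51 and 56 members were higher at an unadjusted p under 0.05. The median log2 difference of the members was then 2.01 and 2.09, and only 39 and 37 of all features passed. Without GFP-positive 2, GFP-positive 4, GFP-negative 9 or GFP-negative 11, between 40 and 53 members were higher. GFP-negative 9 had the highest summed FPKM of its group. With GFP-negative 11 and M both left out, the median was 2.12 and no member passed, with 56 higher at an unadjusted p under 0.05.

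The size of the difference also depends on the scale. Scaling each library to an equal sum of FPKM moved the median of all features to -0.90 and that of the members to 1.12, and 34 were then higher and 1 lower, where 3.04% of all features were higher. Removing the trend with transcript length in each library left 35 higher and 1 lower, where 4.44% of all features were higher, with a member median of 1.45. Over the 62 tested members, annotated transcripts ran between 312 and 7425 nt, and 18 were over 1000 nt.

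H4 genes had the highest summed level and among the largest differences. H4 forms the centre of the nucleosome together with H3. The summed level of the 13 genes was 4643, 8089 and 7957 scaled FPKM in GFP-positive 2, 4 and 7, against 1548, 1364 and 1094 in GFP-negative 9, 11 and M. All 13 had their 3 GFP-positive libraries above the GFP-negative ones, and 12 were higher by limma's test, with a median log2 difference of 2.47.

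H4c12 (mm39, chr13:21934364-21934675) had 937, 1741 and 1685 scaled FPKM in GFP-positive 2, 4 and 7, against 201, 203 and 168 in GFP-negative 9, 11 and M (log2 difference 2.88, SE 0.36, limma adjusted p = 0.00969). It had the highest mean of all members. H4c18 (chr13:22015937-22016366), whose stem-loop is shown above, had 927, 1621 and 1506 scaled FPKM in GFP-positive 2, 4 and 7, against 261, 227 and 176 in GFP-negative 9, 11 and M (log2 difference 2.58, SE 0.36, limma adjusted p = 0.0105). GFP-positive 2 lay between the groups' other libraries for both genes, far from overlap. Together H4c12 and H4c18 made up 40.1%, 41.6% and 40.1% of the H4 level in GFP-positive 2, 4 and 7, against 29.9%, 31.6% and 31.5% in GFP-negative 9, 11 and M.

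H4c6 (chr13:23735432-23735822) had 311, 801 and 843 scaled FPKM in GFP-positive 2, 4 and 7, against 83.6, 89.1 and 100.2 in GFP-negative 9, 11 and M (log2 difference 2.71, SE 0.42, limma adjusted p = 0.0116). The groups again stood apart, with GFP-positive 2 lowest of its group. Outside the large cluster, H4c16 on chromosome 6 (chr6:136778551-136781413) had 50.3, 98.2 and 120 scaled FPKM in GFP-positive 2, 4 and 7, against 13.4, 11.1 and 10.1 in GFP-negative 9, 11 and M (log2 difference 2.82, SE 0.35, limma adjusted p = 0.00969). H4c16 shares no window of 50 bases with another member in its annotated transcript. H4c14 on chromosome 3 (chr3:96168998-96170627) had 68.7, 121 and 125 scaled FPKM in GFP-positive 2, 4 and 7, against 25.6, 37.3 and 20.4 in GFP-negative 9, 11 and M (log2 difference 1.89, SE 0.34, limma adjusted p = 0.0152), with no overlap either.

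The H4 gene that did not pass was H4c8, with 587, 368 and 426 scaled FPKM in GFP-positive 2, 4 and 7, against 357, 211 and 166 in GFP-negative 9, 11 and M (log2 difference 0.96, SE 0.38, limma adjusted p = 0.102). Its log2 difference turned to -0.14 when every library was given the same FPKM total and to -0.13 with quantile normalization. Its groups did not overlap, but it was the H4 gene in which GFP-positive 2 was not the lowest of its group. An unnamed transcript assembled from H4c8 to H4c4 on the same strand was listed at 258 and 219 scaled FPKM in GFP-positive 4 and 7 and at 0 in the other 4 libraries. The sum over that locus was 705, 796 and 818 scaled FPKM in GFP-positive 2, 4 and 7, against 406, 268 and 212 in GFP-negative 9, 11 and M. The order of the GFP-positive libraries in H4c8 alone is therefore not that of its locus.

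H3 genes had a smaller median difference than the other core histones. Their summed level was 2084, 4593 and 4042 scaled FPKM in GFP-positive 2, 4 and 7, against 818, 1291 and 983 in GFP-negative 9, 11 and M. Of 12 tested genes 7 were higher and 5 did not pass limma's test, with a median log2 difference of 1.69 and a range of 1.33 to 2.25. With the length trend removed no H3 gene passed, at a median of 1.05, and 1 passed with equal sums and 1 with quantile normalization. The difference between H3 and the other types was not tested.

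H3c10 (chr13:21901829-21902239) encodes the variant H3.1, used in DNA replication, and had 384, 776 and 747 scaled FPKM in GFP-positive 2, 4 and 7, against 123, 184 and 142 in GFP-negative 9, 11 and M (log2 difference 2.04, SE 0.37, limma adjusted p = 0.0152). H3c11 (chr13:21967130-21967540), also H3.1, had 301, 779.5 and 641 scaled FPKM in GFP-positive 2, 4 and 7, against 164, 282 and 204 in GFP-negative 9, 11 and M (log2 difference 1.33, SE 0.43, limma adjusted p = 0.0607). For H3c11 the gap between GFP-positive 2 and GFP-negative 11 was small, at 301 and 282. H3c3 (chr13:23928956-23929585), which encodes H3.2, had 241, 687 and 556 scaled FPKM in GFP-positive 2, 4 and 7, against 53.7, 157 and 100 in GFP-negative 9, 11 and M (log2 difference 2.25, SE 0.52, limma adjusted p = 0.024).

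The chromosome 3 genes H3c13, H3c14 and H3c15 all encode H3.2. H3c13 (chr3:96175970-96176457) had 105, 247 and 249 scaled FPKM in GFP-positive 2, 4 and 7, against 35.6, 121 and 81.2 in GFP-negative 9, 11 and M (log2 difference 1.40, SE 0.52, limma adjusted p = 0.0879), with GFP-positive 2 below GFP-negative 11. H3c14 (chr3:96154001-96155825) had 22.9, 34.4 and 52.6 scaled FPKM in GFP-positive 2, 4 and 7, against 11.2, 8.61 and 18.7 in GFP-negative 9, 11 and M (log2 difference 1.47, SE 0.39, limma adjusted p = 0.0359). H3c15 (chr3:96145424-96146443) had 65.4, 140.4 and 139 scaled FPKM in GFP-positive 2, 4 and 7, against 21.3, 51.8 and 40.6 in GFP-negative 9, 11 and M (log2 difference 1.60, SE 0.43, limma adjusted p = 0.037). The groups of H3c14 and H3c15 did not overlap.

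GFP-negative 9 was the lowest GFP-negative library for 8 of 12 H3 genes and for 2 of 13 H4 genes, while GFP-negative M was the lowest for 10 of 13 H4 genes. GFP-negative 11 was the highest of its group for 10 of 12 H3 genes. The 4 genes for H3.1 held 50.6%, 50.4% and 49.1% of the H3 level in GFP-positive 2, 4 and 7, against 50.1%, 50% and 47.9% in GFP-negative 9, 11 and M. The median log2 difference was 2.01 for the 4 H3.1 genes and 1.55 for the 8 H3.2 genes, a gap that was not tested.

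**Figure D2:**
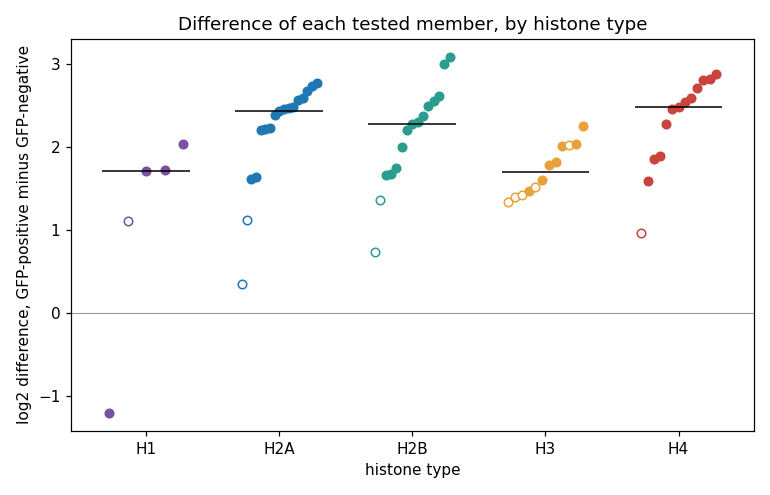
Log2 difference of each tested member, GFP-positive minus GFP-negative, by histone type. Filled points passed limma's test at an adjusted p of 0.05, open points did not, and lines mark the medians of 1.71 (H1), 2.43 (H2A), 2.27 (H2B), 1.69 (H3) and 2.47 (H4); with libraries scaled to an equal sum of FPKM, H2ac18, H2bc21 and H4c8 fall below 0, as do H2ac18 and H4c8 with quantile normalization.

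H2A genes were higher on chromosome 13 throughout and less evenly on chromosome 3. H2A pairs with H2B on the outside of the nucleosome core. Their summed level was 2371, 4767 and 4323 scaled FPKM in GFP-positive 2, 4 and 7, against 788, 890 and 775 in GFP-negative 9, 11 and M. All 12 genes on chromosome 13 were higher by limma's test, with a median log2 difference of 2.47, and so were 2 of 4 on chromosome 3 and H2ac25 on chromosome 11.

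H2ac4 (chr13:23935109-23935581) had 292, 664 and 495 scaled FPKM in GFP-positive 2, 4 and 7, against 89.2, 92.1 and 72.9 in GFP-negative 9, 11 and M (log2 difference 2.43, SE 0.36, limma adjusted p = 0.0108). H2ac10 (chr13:23718076-23718474) had 183, 452 and 462 scaled FPKM in GFP-positive 2, 4 and 7, against 47.2, 50.6 and 61.2 in GFP-negative 9, 11 and M (log2 difference 2.67, SE 0.40, limma adjusted p = 0.0108). In both genes the lowest GFP-positive library was 2 and lay well above the GFP-negative ones. H2ac25 on chromosome 11 (chr11:58845511-58847656) had 43.8, 42.2 and 49.9 scaled FPKM in GFP-positive 2, 4 and 7, against 9.48, 9.97 and 9 in GFP-negative 9, 11 and M (log2 difference 2.20, SE 0.22, limma adjusted p = 0.00595). Its values were nearly level within each group, and GFP-positive 2 was not its lowest.

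Among the chromosome 3 genes, H2ac21 (chr3:96127181-96127624) had 15.3, 47.1 and 50.4 scaled FPKM in GFP-positive 2, 4 and 7, against 7.99, 4.03 and 9.29 in GFP-negative 9, 11 and M (log2 difference 2.23, SE 0.50, limma adjusted p = 0.0232). H2ac20 (chr3:96127677-96128196) had 93, 288 and 251 scaled FPKM in GFP-positive 2, 4 and 7, against 54.3, 73.3 and 55.9 in GFP-negative 9, 11 and M (log2 difference 1.63, SE 0.44, limma adjusted p = 0.0371). Both had GFP-positive 2 close to the GFP-negative range, without overlap. Both calls were lost with no filter, with equal sums and with the length trend removed. They were also lost without GFP-positive 4 or 7 or GFP-negative 11 or M. That of H2ac20 was also lost with quantile normalization and without GFP-negative 9. H2ac19 (chr3:96147065-96147592) had 206, 376 and 321 scaled FPKM in GFP-positive 2, 4 and 7, against 97.1, 184 and 136 in GFP-negative 9, 11 and M (log2 difference 1.11, SE 0.36, limma adjusted p = 0.0618), also without overlap.

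H2ac18 (chr3:96152813-96154000) had 129, 17.8 and 100.3 scaled FPKM in GFP-positive 2, 4 and 7, against 41.2, 47.9 and 56.6 in GFP-negative 9, 11 and M (log2 difference 0.35, SE 0.67, limma adjusted p = 0.724). GFP-positive 4 was the lowest of all libraries there, so the groups overlapped. A transcript of Gm20634 covers H2ac18 and H3c14 on the same strand, and it had 19.8, 107.7 and 46.2 scaled FPKM in GFP-positive 2, 4 and 7, against 3.18, 34.7 and 9.56 in GFP-negative 9, 11 and M. The sum over the locus was 171, 159.8 and 199 in the GFP-positive libraries, against 55.6, 91.2 and 84.9 in the GFP-negative ones, and did not overlap. All annotated windows of 50 bases of H2ac19 also occur in H2ac18, so reads cannot be assigned between these genes with certainty.

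H2B genes were higher in most cases too, again with GFP-positive 2 lowest and 4 highest of their group in the sum. Their summed level was 2290, 5147 and 4255 scaled FPKM in GFP-positive 2, 4 and 7, against 812, 732 and 683 in GFP-negative 9, 11 and M. Of 15 tested genes 13 were higher by limma's test, with a median log2 difference of 2.27. The mean sum of the GFP-positive libraries was 3897 ± 1461, against 742 ± 64.8 for the GFP-negative libraries (SD, n = 3 each), a ratio of 5.25.

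H2bc3 (chr13:23930717-23931224), whose promoter holds the octamer shown above, had 266, 685 and 539.8 scaled FPKM in GFP-positive 2, 4 and 7, against 73.9, 41.3 and 51.3 in GFP-negative 9, 11 and M (log2 difference 3.09, SE 0.41, limma adjusted p = 0.0101). This was the largest log2 difference of the 62 tested members. H2bc15 (chr13:21938293-21938673) had 318, 1037 and 668 scaled FPKM in GFP-positive 2, 4 and 7, against 162, 118 and 117 in GFP-negative 9, 11 and M (log2 difference 2.21, SE 0.45, limma adjusted p = 0.0186), the highest mean of the H2B genes. H2bc8 (chr13:23755570-23756187) had 354, 619 and 483 scaled FPKM in GFP-positive 2, 4 and 7, against 141, 118 and 99.9 in GFP-negative 9, 11 and M (log2 difference 1.99, SE 0.32, limma adjusted p = 0.0123). The groups did not overlap in these 3 genes, and GFP-positive 4 was the highest library.

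On chromosome 3, H2bc18 (chr3:96177068-96177448) had 314, 515 and 514 scaled FPKM in GFP-positive 2, 4 and 7, against 73.7, 76.8 and 63.3 in GFP-negative 9, 11 and M (log2 difference 2.61, SE 0.30, limma adjusted p = 0.00851). It shares no window of 50 bases with another member, and its groups stood far apart. H2bc21 (chr3:96128435-96131054) had 1.94, 1.83 and 1.85 scaled FPKM in GFP-positive 2, 4 and 7, against 1.11, 0.903 and 0.792 in GFP-negative 9, 11 and M (log2 difference 0.73, SE 0.26, limma adjusted p = 0.0794). That is a low level, with groups that did not overlap and a difference below the threshold. H2bc11 had a log2 difference of 1.36 and did not pass either (limma adjusted p = 0.0912).

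The named transcripts of H2bc23 and H2bc24 were near 0 while their loci were not. The named transcripts of H2bc23 summed to at most 0.448 scaled FPKM in a library, and an unnamed isoform of the locus had 29.6, 58.8 and 52.3 in GFP-positive 2, 4 and 7, against 10.4, 9.21 and 7.99 in GFP-negative 9, 11 and M. H2bc24 had 2.06, 1.65 and 2.89 scaled FPKM in GFP-positive 2, 4 and 7, against 0.403, 0.412 and 0.224 in GFP-negative 9, 11 and M. An unnamed isoform at that locus had 48.8, 95.6 and 97.1 in the GFP-positive libraries, against 16.2, 14.9 and 13.1 in the GFP-negative ones. The GFP-negative mean of H2bc24 was 0.3465 scaled FPKM, under the filter of 0.5. H2bc24 thus entered the test through the GFP-positive libraries, and it is counted among the 13 H2B genes called higher. With unnamed isoforms added where a locus has a single gene name, all 63 members were tested and 52 were higher, where 16.0% of all features were higher, and 1 was lower.

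Neighbouring H2A and H2B genes often share a promoter region and are read in opposite directions. There were 11 such pairs with starts between 176 and 302 nt apart. In 8 pairs both genes were higher by limma's test. They include H2ac24 and H2bc24, of which H2bc24 entered the test through the GFP-positive libraries. Over the 10 pairs with both genes tested, the log2 differences of the partners were between 0.02 (H2ac7 and H2bc7, 2.47 and 2.49) and 1.20 apart (H2ac11 and H2bc11, 2.56 and 1.36), with a median of 0.57. H2ac13 and H2bc13 had 2.77 and 2.55, and H2ac8 and H2bc8 had 2.73 and 1.99. The loci of H2ac11 and H2ac12, and of H2bc11 and H2bc12, are each joined by unnamed assembled transcripts in these tables, so levels within them are split with less certainty.

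**Figure D3:**
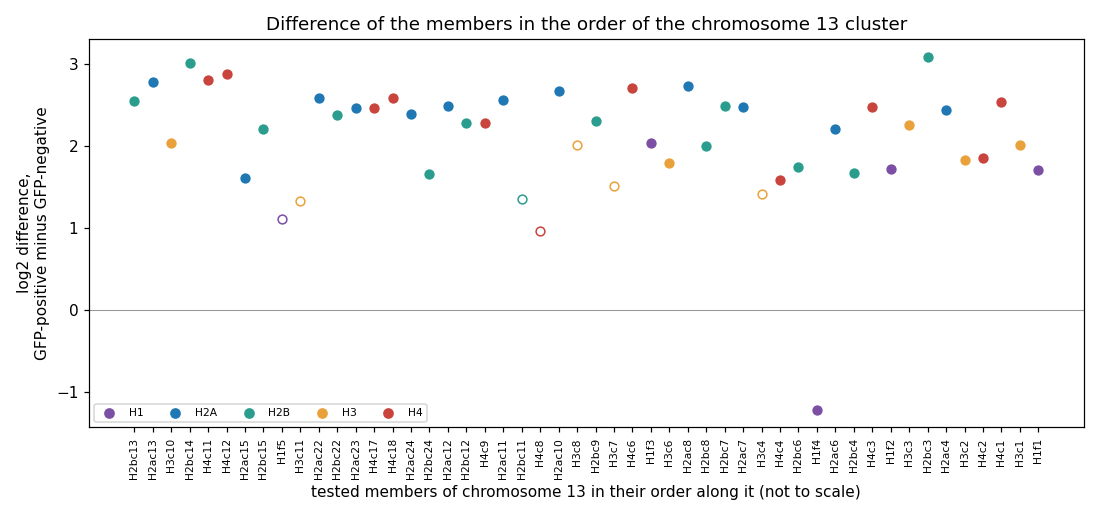
Log2 difference, GFP-positive minus GFP-negative, of the 50 tested members on chromosome 13 in their order along it, not to scale. Colours give the histone type, and filled points passed limma's test at an adjusted p of 0.05. Points lie between 0.96 and 3.09 along the whole row except H1f4 at -1.21; with libraries scaled to an equal sum of FPKM or by quantiles, H4c8 falls below 0.

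The linker histones of the H1 family bind DNA between nucleosomes. Calls were not the same for all mouse subtypes, and differences between subtypes were not tested. Their summed level was 738, 1377 and 1180 scaled FPKM in GFP-positive 2, 4 and 7, against 314, 453 and 365 in GFP-negative 9, 11 and M. H1f1, H1f2 and H1f3 were higher by limma's test, H1f4 was lower and H1f5 did not pass. With equal sums 1 H1 gene was higher and 1 was lower, where 3.04% and 39.2% of all features were. With quantile normalization the counts were also 1 and 1.

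H1f2 (chr13:23922791-23924350) had 344, 620.4 and 523 scaled FPKM in GFP-positive 2, 4 and 7, against 188, 139.9 and 118 in GFP-negative 9, 11 and M (log2 difference 1.72, SE 0.34, limma adjusted p = 0.0179), with no overlap of the groups. H1f1 (chr13:23947649-23948389), a subtype known from testis and other tissues with dividing cells, had 226, 220.3 and 212 scaled FPKM in GFP-positive 2, 4 and 7, against 48.8, 87.7 and 70 in GFP-negative 9, 11 and M (log2 difference 1.71, SE 0.29, limma adjusted p = 0.0139). H1f1 was nearly level across the GFP-positive libraries. H1f5 (chr13:21964053-21964795) had 119.5, 440.2 and 354 scaled FPKM in GFP-positive 2, 4 and 7, against 57.9, 204 and 158 in GFP-negative 9, 11 and M (log2 difference 1.11, SE 0.61, limma adjusted p = 0.217). Its groups overlapped, since GFP-positive 2 lay below GFP-negative 11 and M and GFP-negative 9 was the lowest of all.

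H1f2 made up 46.5%, 45.1% and 44.4% of the H1 level in GFP-positive 2, 4 and 7, against 59.98%, 30.9% and 32.2% in GFP-negative 9, 11 and M. H1f5 made up 16.2%, 31.98% and 30.04% in the GFP-positive libraries, against 18.5%, 45.01% and 43.1% in the GFP-negative ones. In both shares GFP-negative 9 stood apart from GFP-negative 11 and M.

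H1f4 (chr13:23804612-23806541) had 0.829, 0.439 and 0.815 scaled FPKM in GFP-positive 2, 4 and 7, against 1.4, 3.27 and 2.35 in GFP-negative 9, 11 and M (log2 difference -1.21, SE 0.34, limma adjusted p = 0.0423). Its level was low in all libraries, and every GFP-positive library lay below every GFP-negative one. The call was lost with no filter on the mean, and also on leaving out GFP-positive 2, 4 or 7 or GFP-negative 11 or M. The annotated H1f4 transcript overlaps transcripts of H2bc6 and Gm11398 on the same strand. Summed over that locus, the level was 78.6, 158 and 149.9 scaled FPKM in GFP-positive 2, 4 and 7, against 44.98, 41.5 and 36.2 in GFP-negative 9, 11 and M. The sum thus runs in the opposite direction to H1f4, and how the assembly split reads at the locus was not tested.

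**Figure D4:**
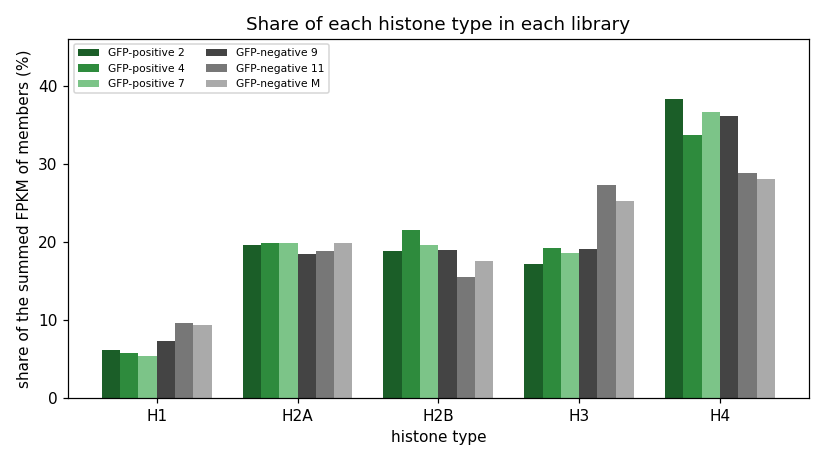
Share of each histone type in the summed FPKM of the members, in percent, in each library. Bars start at 0, with GFP-positive 2, 4 and 7 in green and GFP-negative 9, 11 and M in grey; H4 took 33.7% to 38.3% in GFP-positive libraries, and GFP-negative 9 (36.2%) lay inside that range while GFP-negative 11 and M (28.8% and 28.04%) lay below it.

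By the shares of H3 and H4, GFP-negative 9 lay among the GFP-positive libraries or at their edge. H3 made up 17.2%, 19.2% and 18.6% of the members' level in GFP-positive 2, 4 and 7, against 19.1%, 27.3% and 25.2% in GFP-negative 9, 11 and M. H1 made up 6.09%, 5.74% and 5.42%, against 7.33%, 9.57% and 9.37%. H2A stayed between 18.4% and 19.9% in all 6 libraries. The H1 shares of the groups did not overlap, and the H3 and H4 shares overlapped through GFP-negative 9.

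The clusters on chromosomes 13 and 3 differed in how many members passed. On chromosome 13, 42 of 50 tested members were higher and 1 was lower by limma's test, with a median log2 difference of 2.26. On chromosome 3, 6 of 10 were higher, with a median of 1.53. The chromosome 3 cluster summed to 1022, 1790 and 1805 scaled FPKM in GFP-positive 2, 4 and 7, against 369, 606 and 483 in GFP-negative 9, 11 and M. The difference between the clusters was not tested. Of the 10 genes on chromosome 3, 4 encode H2A and 3 encode H3, and the 9 H3 genes on chromosome 13 had a median of 1.82.

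The members share much of their sequence. At the median member, 49.5% of the windows of 50 bases in its annotated transcripts also occurred in another member, and for 30 members the share was over 50%. H1f1, H1f5, H2bc18, H2bc21 and H4c16 shared none. The sources used here do not say how the authors' counting split reads among near-identical copies, so the level of a single copy is less certain than the sum of its type. The sums of all 5 types had every GFP-positive library above every GFP-negative one.

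Calls were spread over genes with short and with long annotated 3' ends. Distances from the stem-loop to the end were read from GENCODE, in single-exon transcripts. In 22 genes the transcript ended within 60 nt of the stem-loop, and 17 of them were higher, with a median log2 difference of 2.38. In 17 genes more than 300 nt followed it, up to 4884 nt in H1f3, and 14 were higher and 1 was lower, with a median of 1.89. H2ac18, H3c14, H3c7 and H4c4 have another length in the deposited tables than in GENCODE, and without them the counts were 17 higher of 21 and 12 higher and 1 lower of 14. In 9 genes, among them H4c12, H3c10 and H2bc18, the annotation covers the coding sequence only, and 8 were higher, with a median of 2.55. An FPKM over a transcript annotated past its true end is lower than the level of the processed mRNA.

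The factors that transcribe and process histone mRNA did not move together. Of 18 listed genes 17 were tested, with a median log2 difference of 0.20. By limma's test 4 were higher and 2 were lower, where 11.9% and 8.55% of all features were. With libraries scaled to an equal sum none was higher, 8 were lower and the median was -0.74. In that scaling 39.2% of all tested features were lower and 3.04% were higher, and the list's median lay 0.16 above that of all features, against 0.19 above it in the median-of-ratios scaling. The list was chosen with results of these data known, as were the lists that follow. Slbp, the stem-loop binding protein, had 14.2, 9.94 and 24.2 scaled FPKM in GFP-positive 2, 4 and 7, against 3.98, 4.59 and 5.81 in GFP-negative 9, 11 and M (log2 difference 1.57, SE 0.35, limma adjusted p = 0.0227). Mif4gd, which links SLBP to translation, had 43, 25.2 and 20.6 scaled FPKM in GFP-positive 2, 4 and 7, against 11.7, 3.95 and 7.69 in GFP-negative 9, 11 and M (log2 difference 1.91, SE 0.43, limma adjusted p = 0.0227). Both genes had all GFP-positive libraries above the GFP-negative ones, as did Coil.

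Coil, the coilin of Cajal bodies, had a log2 difference of 1.02 (limma adjusted p = 0.0322), and Lsm10, part of the U7 ribonucleoprotein, one of 1.12 (limma adjusted p = 0.04). Upf1, a helicase in histone mRNA decay, had 2.66, 3.39 and 3.15 scaled FPKM in GFP-positive 2, 4 and 7, against 6.21, 27.8 and 16.3 in GFP-negative 9, 11 and M (log2 difference -2.05, SE 0.48, limma adjusted p = 0.0263). GFP-negative 9 was closest to the GFP-positive libraries in Upf1. Sympk, a scaffold of the cleavage complex, was also lower (log2 difference -0.89, SE 0.23, limma adjusted p = 0.0341). Npat, the coactivator of the histone clusters, did not pass (log2 difference 0.42, SE 0.31, limma adjusted p = 0.345), with 4.45, 2.58 and 4.04 scaled FPKM in GFP-positive 2, 4 and 7, against 3.4, 1.91 and 2.57 in GFP-negative 9, 11 and M.

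Of the calls in this list, that of Slbp was lost without GFP-positive 2 or 7 or GFP-negative 11 or M, with no filter on the mean and with equal sums. Those of Mif4gd, Coil and Upf1 were lost with no filter, and also on leaving out GFP-positive 2, 4 or 7 or GFP-negative 11 or M. Those of Mif4gd and Coil were also lost with equal sums and with the length trend removed. The calls of Lsm10 and Sympk were lost with no filter, and also on leaving out GFP-positive 2, 4 or 7 or GFP-negative 11 or M. That of Lsm10 was also lost with equal sums.

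Genes of DNA replication and S phase were higher in part. Of 26 tested, 10 were higher and none was lower by limma's test, where 11.9% and 8.55% of all features were. The median log2 difference was 0.90. None was higher with no filter on the mean, without GFP-positive 7 or without GFP-negative M. The medians were then 0.90, 0.93 and 0.94. With libraries scaled to an equal sum 1 was higher, 2 were lower and the median was -0.09. In that scaling 3.04% of all features were higher and 39.2% were lower. The list's median then lay 0.81 above that of all features, against 0.88 above it in the median-of-ratios scaling. Mcm7, a subunit of the replicative helicase, had 29.9, 10.5 and 36.5 scaled FPKM in GFP-positive 2, 4 and 7, against 2.19, 3.84 and 3.58 in GFP-negative 9, 11 and M (log2 difference 2.67, SE 0.47, limma adjusted p = 0.014). Prim1, the primase subunit, had 20, 8.59 and 18.6 scaled FPKM in GFP-positive 2, 4 and 7, against 2.19, 4.57 and 2.86 in GFP-negative 9, 11 and M (log2 difference 2.09, SE 0.39, limma adjusted p = 0.0157). In both genes GFP-positive 4 was the lowest GFP-positive library, unlike in most histone genes, and the groups did not overlap.

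Ccne2, cyclin E2 of the start of S phase, had 5.66, 3.73 and 8.03 scaled FPKM in GFP-positive 2, 4 and 7, against 1, 1.31 and 1.64 in GFP-negative 9, 11 and M (log2 difference 1.75, SE 0.33, limma adjusted p = 0.0158). It was highest in GFP-positive 7. Among those that did not pass were the other tested subunits of the same helicase: Mcm2 had a log2 difference of 0.74, Mcm3 -0.21, Mcm4 -0.64, Mcm5 1.14 and Mcm6 0.74. The share of cells in S phase was not measured.

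Other listed histone genes, neither members nor testis histones, ran in both directions. Of 10 tested, 2 were higher and 1 was lower by limma's test, where 11.9% and 8.55% of all features were. The median log2 difference was 0.29. With equal sums none was higher and 3 were lower, where 39.2% of all features were lower. The list's median then lay 0.13 above that of all features. H2az1, a variant placed at promoters, had 187, 276 and 296 scaled FPKM in GFP-positive 2, 4 and 7, against 96.8, 83 and 85.5 in GFP-negative 9, 11 and M (log2 difference 1.49, SE 0.29, limma adjusted p = 0.0164). H2ax, phosphorylated at DNA breaks, had 97.3, 142 and 148 scaled FPKM in GFP-positive 2, 4 and 7, against 20.4, 64.2 and 54.3 in GFP-negative 9, 11 and M (log2 difference 1.60, SE 0.44, limma adjusted p = 0.0403). H3f3b, a gene for the replacement histone H3.3, had 25.6, 31.2 and 29.5 scaled FPKM in GFP-positive 2, 4 and 7, against 41.8, 118 and 117 in GFP-negative 9, 11 and M (log2 difference -1.52, SE 0.42, limma adjusted p = 0.0384). GFP-negative 9 was the lowest GFP-negative library for H2ax and H3f3b, while the groups of all 3 genes did not overlap. None of the 3 calls held once GFP-positive 7 was taken out of the fit, or once GFP-negative M was. H2ax and H2az1 also failed to pass with equal sums, quantile normalization or the length trend removed. H2ax and H3f3b did not pass with no filter on the mean, or once GFP-positive 2 or 4 was taken out. H3f3b also failed once GFP-negative 11 was taken out.

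Among 13 listed histone chaperones and related factors 1 was higher and 1 was lower by limma's test, where 11.9% and 8.55% of all features were. Their median log2 difference was -0.12. With equal sums none was higher and 5 were lower, beside the 39.2% of all features, and with the length trend removed the median was 0.27. Hat1, which acetylates new H4, had 53.2, 18.6 and 35.3 scaled FPKM in GFP-positive 2, 4 and 7, against 9.71, 7.3 and 9.72 in GFP-negative 9, 11 and M (log2 difference 1.83, SE 0.38, limma adjusted p = 0.0197). Hira, a chaperone of H3.3, had 4.34, 4.41 and 4.2 scaled FPKM in GFP-positive 2, 4 and 7, against 6.52, 14.4 and 12.4 in GFP-negative 9, 11 and M (log2 difference -1.20, SE 0.32, limma adjusted p = 0.0372). In the chromatin assembly factor that loads H3.1, Chaf1a had a log2 difference of -0.12 and Chaf1b one of 1.07, and neither passed. The calls of Hat1 and Hira were both lost with no filter on the mean, with the length trend removed and without GFP-positive 7 or GFP-negative 11 or M. That of Hat1 was also lost with equal sums, and that of Hira also without GFP-positive 2 or 4.

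**Figure D5:**
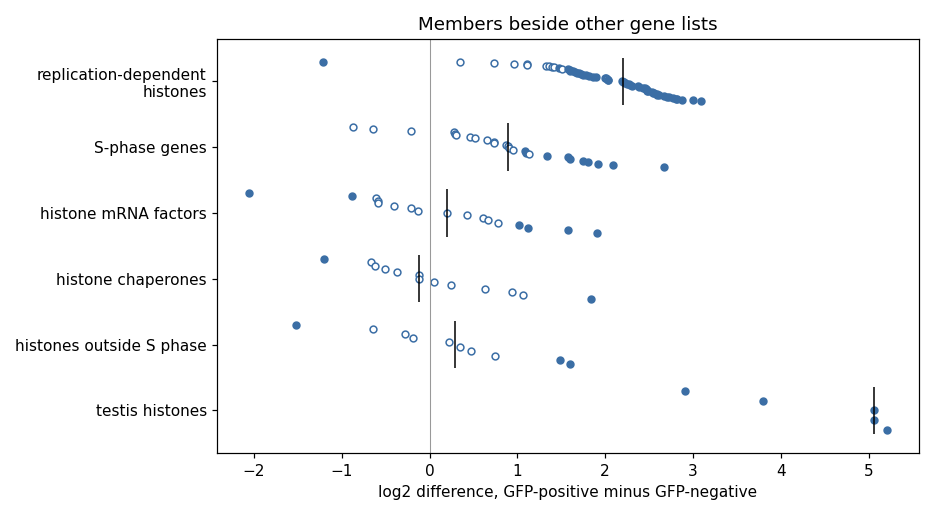
Log2 difference, GFP-positive minus GFP-negative, of every tested gene in the members and in 5 other lists. Filled points passed limma's test at an adjusted p of 0.05 and open points did not. Vertical lines mark medians, 2.20 for the members and 0.90 for the S-phase genes. With libraries scaled to an equal sum of FPKM the medians are 1.12 and -0.09, and that of the histone mRNA factors is -0.74. In that scaling the S-phase median lies 0.81 above that of all features, and that of the histone mRNA factors 0.16 above it. The row labelled histones outside S phase holds other histone genes, H2ax among them, whose link to S phase was not tested. The row labelled histone chaperones also holds related factors such as Hat1.

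Testis histone genes, which are not counted among the members, were also higher, with a larger median log2 difference. Of 7 listed, 5 were tested and all 5 were higher, with a median log2 difference of 5.06, where 11.9% of all features were higher. H2ac1 had a GFP-negative mean of 0.459 scaled FPKM, under the filter of 0.5, so it entered the test through the GFP-positive libraries. H2bc1 had 81.8, 33.5 and 54.6 scaled FPKM in GFP-positive 2, 4 and 7, against 1.1, 0.839 and 0.938 in GFP-negative 9, 11 and M (log2 difference 5.20, SE 0.34, limma adjusted p = 0.00305). H3f4 had 119, 48.2 and 84.5 scaled FPKM in GFP-positive 2, 4 and 7, against 2, 1.9 and 1.72 in GFP-negative 9, 11 and M (log2 difference 5.06, SE 0.34, limma adjusted p = 0.00305). H2ac1 (5.06) and H2bc27 (3.80) had the same order, with GFP-positive 2 highest and 4 lowest of their group. That order is the reverse of the members' summed level, in which GFP-positive 2 was lowest and 4 highest.

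Most tested markers of germ cells were higher in the GFP-positive libraries as well. Of 12 listed, 8 were tested and 6 were higher by limma's test, where 11.9% of all features were higher. All 8 had a GFP-negative mean under the filter of 0.5 scaled FPKM. They entered the test through the GFP-positive libraries, so the count of higher genes is partly set by the filter. The list summed to 151.7, 34.5 and 54.2 scaled FPKM in GFP-positive 2, 4 and 7, against 1.504, 2.12 and 2.96 in GFP-negative 9, 11 and M. Tex101 had 31.3, 13.2 and 16.3 scaled FPKM in GFP-positive 2, 4 and 7, against 0.143, 0.188 and 0.113 in GFP-negative 9, 11 and M (log2 difference 4.91, SE 0.35, limma adjusted p = 0.00305), and Mael had 50.3, 9.34 and 16.4 scaled FPKM in GFP-positive 2, 4 and 7, against 0.381, 0.16 and 0.523 in GFP-negative 9, 11 and M (log2 difference 4.60, SE 0.56, limma adjusted p = 0.00964). Dazl (3.57) and Ddx4 (2.61) were also higher, and Ddx4 was listed at 0 in GFP-negative 9 and 11. Kit and Stra8 did not pass, at log2 differences of 0.37 and 2.02 (limma adjusted p = 0.464 and 0.168), and the groups of both overlapped. Zbtb16, Id4 and Acrv1 fell under the filter. Prm1, of late spermatids, was listed at 0 in all libraries. The part of germ cell transcripts in the histone result was not tested.

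Among 14 markers of other testis somatic cells 12 were tested, with a median log2 difference of -1.52. By limma's test none was higher and 1 was lower, where 11.9% and 8.55% of all features were. Cyp11a1 and Hsd3b1 had positive log2 differences, of 0.02 and 0.23, and Acta2 had one of -0.05. The other tested markers had negative differences, larger in size than that of Acta2. The count of lower markers was 8 with equal sums, where 39.2% of all features were lower, and 8 with arrayWeights, where most features passed in either direction. It was 6 with unnamed isoforms added, 7 without GFP-negative 9, and 0 without GFP-positive 4, GFP-positive 7 or GFP-negative M. The share of all features that was lower is not given for these fits, so the counts cannot be set against it. The list's median less that of all features was -1.54 in the main fit and -1.21 with equal sums. It was -1.42 with arrayWeights, -1.65 with unnamed isoforms added and -1.86 without GFP-negative 9. Lyz2, a macrophage lysozyme gene, had 0.633, 0.718 and 0.866 scaled FPKM in GFP-positive 2, 4 and 7, against 6, 2.15 and 4.52 in GFP-negative 9, 11 and M (log2 difference -1.84, SE 0.37, limma adjusted p = 0.0182). The list summed to 144, 511 and 409 scaled FPKM in GFP-positive 2, 4 and 7, against 249, 1325 and 354 in GFP-negative 9, 11 and M, so that its groups overlapped. Its highest sum was in GFP-negative 11, where Col1a1 stood at 686, and Adgre1 and Pecam1 fell under the filter. The part of these transcripts was not tested either.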

How the data were processed

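Total RNA libraries from 3 GFP-positive and 3 GFP-negative Sertoli samples were analysed. Per the submitters' processing notes, reads went through Trimmomatic, HISAT2 and StringTie on mm39; versions and the strand setting are not given in the sources used here. The deposited tables list 153503 transcripts, the same ones for every library, with the authors' FPKM for each, per the file headers. They also hold mean coverage per base (a signal) by the authors, whose ratio to FPKM was used only to obtain the aligned bases.

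FPKM was summed per gene name (transcripts without a name, per assembled locus), which gave 57353 features. Scaling between libraries was by the median of ratios, over 15389 features with a mean FPKM of at least 1. A feature entered the test with a longest transcript of at least 200 nt and a mean scaled FPKM of at least 0.5, which held for 18921, of which 13610 were named. The values log2(scaled FPKM + 0.5) were tested with limma 3.58.1 in R 4.3.3 (lmFit, eBayes with trend) as GFP-positive minus GFP-negative. P-values were adjusted over all features by the Benjamini-Hochberg method, with a threshold of 0.05. Fold changes on this scale understate the change of low genes. The fit was tested on simulated data. Without read counts, no counting interval could be given. The aligned bases behind a tested member were at least 6.75 kb in any library, and the median over members of the lowest library was 230.0 kb.

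Members and gene lists were chosen with earlier results of these data known. Values in every library are given for the 3 highest tested members of each type, every tested member outside chromosome 13 and every member called lower, and for up to 4 called genes per list by adjusted p; other genes were named after their values were seen. Sequences come from GENCODE vM21 transcripts (GRCm38) and RefSeq promoters (GRCm38.p6), matched by identifier and symbol, and no coordinate was converted: gene positions are those of the deposited tables (mm39). All 68 member transcripts were found in GENCODE, 59 with the same length. The results were recomputed under 19 alternatives. Tables were read with pandas 2.3.3 in Python 3.11.15 and figures drawn with matplotlib 3.10.9.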

Additional observations from a re-analysis of the deposited data

How the results depend on the processing

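The 3862 features that passed became 1119 with no filter on the mean, 8201 with equal sums of FPKM, 1834 with the length trend removed, 11564 with arrayWeights (whose estimation did not fully converge), 1 without GFP-negative 11 and M (3715 at an unadjusted p under 0.05), and 37 to 5811 when 1 library was left out (at least 5184 at an unadjusted p under 0.05). The share of these calls that was higher was 58.1%, and 49.8%, 7.21%, 45.9% and 66.9% with FPKM as deposited, equal sums, the length trend removed and no filter. The 50 members called higher became 33 with no filter and 0 without GFP-negative 11 and M (56 at an unadjusted p under 0.05 in limma), and 0 to 53 with 1 library left out (at least 51 unadjusted). The 1 member called lower became 0 with no filter and 0 without GFP-negative 11 and M, and 0 to 1 with 1 library left out. H2ac18, which did not pass, turned to -0.74 with equal sums, -0.090 with quantile normalization, -0.21 with the length trend removed and -0.16 without GFP-positive 2 (up to 1.25 with 1 library left out), and H2bc21 to -0.060 with equal sums. H2bc6 turned to -0.78 when only single-exon transcripts were summed, which leaves 1 transcript over H1f4, and H4c8 to -0.14 with equal sums and -0.13 with quantile normalization. The cause of these shifts was not tested. Of the values of the 27 members named by rule, 389 kept their direction and side of the threshold, 111 lost and 8 gained a call, and 5 turned. No paired analysis was possible because the groups share no replicate numbers. Depth is known only as aligned bases, so a low level such as that of H1f4 or H2bc21 has no counting error here.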
